A study of Mus musculus with 56 samples.

Results

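The genes described here are 40 genes of the cell division cycle, 22 that act in S phase, when DNA is copied, and 18 that act in G2 and mitosis (G2/M), when the copies are separated. They were taken as a list of mouse gene symbols. All 40 were found by Entrez ID among the 24424 genes of the expression table, and all 40 were among the 12133 genes tested, those with a mean of at least 4 on the table's log2 scale.

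RNA-seq was done on bone marrow progenitors sorted from C57BL/6 mice that were wild type (WT) or carried both Tet2-/- and Flt3ITD, a genotype shortened to T2F3. Tet2 encodes a dioxygenase that turns 5-methylcytosine into 5-hydroxymethylcytosine, and Flt3ITD is an internal tandem duplication in the gene of a receptor tyrosine kinase of early blood progenitors. Multipotent progenitors (MPP) were gated as lin- Sca+ cKit+ cells with CD48 and no CD150, and granulocyte-macrophage progenitors (GMP) as lin- Sca- cKit+ cells with CD34 and CD16/32. There were 4 WT MPP libraries (numbered 1, 3, 4 and 5), 3 T2F3 MPP libraries, 5 WT GMP libraries and 3 T2F3 GMP libraries, and values per library are given below in the order of these numbers. The sources used here give neither the age of the mice nor any treatment, and they do not say that the libraries of a group came from separate animals. The p-values therefore measure the spread between libraries, which may be technical. Values are regularized log2 expression values, which shrink the differences of genes with few reads, and the read depth behind them is unknown. They are not scaled by gene length, so levels are compared between libraries for 1 gene and never between genes.

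A cell that enters the cycle first loads the MCM helicase onto replication origins, a step called licensing that needs Cdc6 and Cdt1. Cyclin E and the E2F factors then drive entry into S phase, where Cdc45 and the GINS complex switch the helicase on and polymerases, the clamp PCNA and the enzymes of nucleotide supply copy the DNA. Cyclin B with Cdk1, the Aurora and Polo kinases and the factor Foxm1 bring the cell into mitosis, where kinetochore proteins, kinesin motors and the spindle checkpoint divide the chromosomes. S phase genes are textbook targets of E2F, and G2/M genes of the DREAM and MuvB complexes, which bind a sequence known as the cell cycle homology region (CHR). Most long-term stem cells of the marrow are quiescent, whereas committed progenitors such as GMP divide often.

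Promoter sequences are shown for 6 members because the S phase and G2/M lists hold different regulatory letters. They are RefSeq sequences of the GRCm38.p6 assembly, the 250 bases that end just before the annotated start, on the gene's strand and 5′ to 3′. Capitals mark every match to the E2F-type letters TTTNNCGC, the CHR letters TTTGAA and the CCAAT box, each searched on both strands; overlapping matches run together. Cdc6 (chr11:98907901-98908150, + strand) and Mcm5 (chr8:75109259-75109508, + strand) are S phase genes of origin licensing. Cdk1 (chr10:69352913-69353162, - strand), Cdc20 (chr4:118437344-118437593, - strand), Kif11 (chr19:37376132-37376381, + strand) and Mki67 (chr7:135716380-135716629, - strand) are G2/M genes.
Cdc6: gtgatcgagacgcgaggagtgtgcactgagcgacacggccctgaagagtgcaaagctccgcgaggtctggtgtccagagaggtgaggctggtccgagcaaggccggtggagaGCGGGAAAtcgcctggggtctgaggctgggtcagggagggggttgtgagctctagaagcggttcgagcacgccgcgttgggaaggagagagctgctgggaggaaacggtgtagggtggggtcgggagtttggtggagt
Mcm5: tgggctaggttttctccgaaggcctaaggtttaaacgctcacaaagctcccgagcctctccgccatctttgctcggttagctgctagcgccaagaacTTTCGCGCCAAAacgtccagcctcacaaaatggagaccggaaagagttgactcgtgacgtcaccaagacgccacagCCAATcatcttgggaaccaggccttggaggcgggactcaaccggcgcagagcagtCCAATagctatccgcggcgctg
Cdk1: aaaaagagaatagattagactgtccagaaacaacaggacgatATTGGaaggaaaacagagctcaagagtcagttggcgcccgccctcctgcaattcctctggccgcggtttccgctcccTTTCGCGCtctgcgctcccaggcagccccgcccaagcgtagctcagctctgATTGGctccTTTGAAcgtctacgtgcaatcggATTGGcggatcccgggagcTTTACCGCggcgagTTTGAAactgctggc
Cdc20: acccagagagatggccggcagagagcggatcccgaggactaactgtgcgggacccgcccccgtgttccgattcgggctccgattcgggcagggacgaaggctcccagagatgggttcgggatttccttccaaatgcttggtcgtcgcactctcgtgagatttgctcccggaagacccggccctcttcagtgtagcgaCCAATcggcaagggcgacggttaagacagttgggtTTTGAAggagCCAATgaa
Kif11: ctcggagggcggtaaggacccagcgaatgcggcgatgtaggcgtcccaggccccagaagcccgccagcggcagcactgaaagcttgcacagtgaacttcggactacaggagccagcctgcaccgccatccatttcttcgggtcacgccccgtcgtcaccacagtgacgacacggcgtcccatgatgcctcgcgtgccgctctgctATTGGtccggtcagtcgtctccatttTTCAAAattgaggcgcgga
Mki67: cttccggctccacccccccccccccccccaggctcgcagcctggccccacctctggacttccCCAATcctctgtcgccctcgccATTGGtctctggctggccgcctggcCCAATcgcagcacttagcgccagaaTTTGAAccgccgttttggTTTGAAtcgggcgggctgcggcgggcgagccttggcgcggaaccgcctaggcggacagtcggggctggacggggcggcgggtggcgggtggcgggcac

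The promoter entries searched, which leave out a chromosome, covered 31 of the 40 members, 17 S phase genes and 14 G2/M genes. Each entry also covers 50 bases after the start. E2F-type letters lay in the entries of 8 of the 17 S phase genes (47.1%) and 1 of the 14 G2/M genes (7.1%, Cdk1), against 9.9% of the tested genes with an entry. CHR letters lay in 3 of the 17 S phase genes (17.6%) and 10 of the 14 G2/M genes (71.4%), against 14.8% of tested genes. CCAAT boxes lay in 11 S phase genes (64.7%) and 13 G2/M genes (92.9%), against 43.4% of tested genes. In the part before the start alone, E2F-type letters lay in 4 S phase genes and 1 G2/M gene, and CHR letters in 3 and 6. Of all 27025 genes searched, 5.9%, 20.2% and 41.1% had the 3 sets of letters in an entry. Of the 32851 entries searched, 5.2%, 17.9% and 37.4% held them. In the sequences above, Cdc6 and Mcm5 hold E2F-type letters and no CHR letters, Cdk1 holds both, and Cdc20, Kif11 and Mki67 hold CHR letters and no E2F-type letters. A match is a run of letters and not a measured binding site.

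Some libraries stood apart from their group, and this touches every comparison below. WT GMP 1 was the lowest of its 5 libraries for 20 members and the highest for 13, and T2F3 GMP 2 the lowest of its 3 libraries for 21 members and the highest for 12. Set against the average of the remaining libraries in its group, each of the 2 was higher for the same 13 members and lower for the same 23. For the remaining 4 members the 2 libraries went opposite ways. Over all 12133 tested genes, the deviations of the 2 libraries from their group means correlated at 0.81, so their agreement was not confined to the members. Ccne2, the E2 type of cyclin E, was 0.84 higher in WT GMP 1 and 0.81 higher in T2F3 GMP 2 than the mean of the other libraries of the group. Mcm2, a helicase subunit, was 0.54 and 0.60 lower in log2 units. A score of 74 ribosomal protein genes moved with this: it was 0.85 in WT GMP 1 and 0.80 in T2F3 GMP 2, against -0.27 to 0.07 in the other WT GMP libraries and -0.12 and 0.19 in the other T2F3 GMP libraries. T2F3 MPP 1 was the lowest of its group for 40 of 40 members, by a median of 0.30 below the mean of the other 2 libraries (range of the deviations -0.55 to -0.04). Counts of called members and some other results are repeated below without 1 or more of these libraries. Others, such as those of the wider lists, are given for all libraries only.

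**Figure D1:**
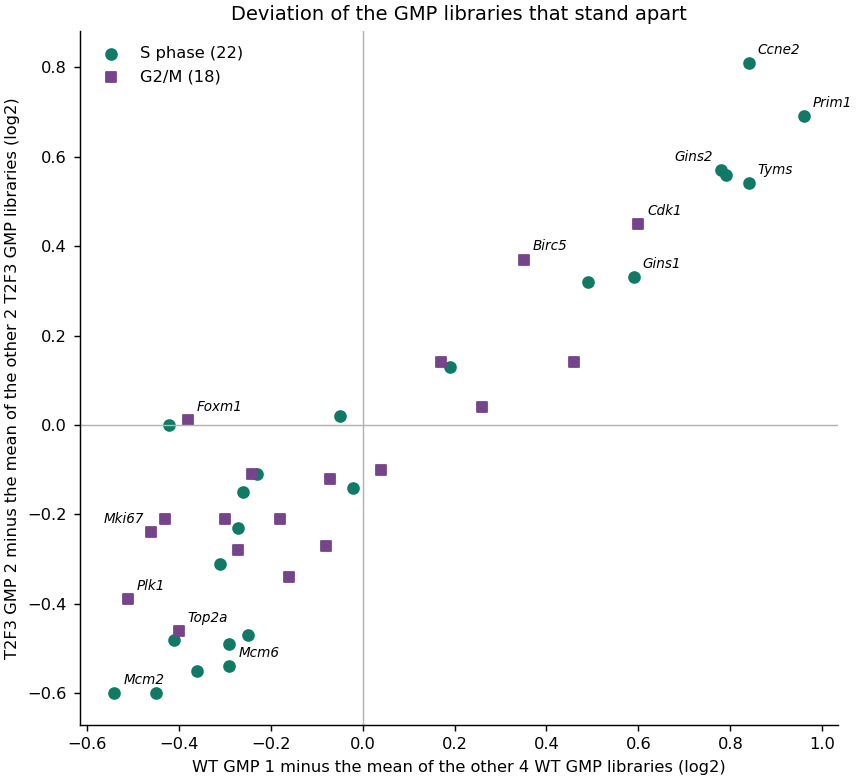
Each point is 1 of the 40 genes. The x axis is its level in WT GMP 1 minus the mean of the other 4 WT GMP libraries and the y axis its level in T2F3 GMP 2 minus the mean of the other 2 T2F3 GMP libraries, both in log2 units. Ccne2 and Prim1 lie at the upper right and Mcm2 at the lower left, with 13 genes above 0 on both axes and 23 below 0 on both.

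Summed over members, the 2 populations lay apart in both lists, and the 2 genotypes overlapped except for the S phase mean in GMP. The mean of the 22 S phase genes, each centred on its own mean over the 15 libraries, ran from -0.40 to -0.07 in the MPP libraries and from 0.08 to 0.24 in the GMP libraries. The mean of the 18 G2/M genes ran from -0.42 to -0.08 in MPP and from 0.09 to 0.26 in GMP. No MPP library reached a GMP library in either list, and this was also so with medians over members, with each library centred on its median and after quantile normalization. By group, the S phase mean was -0.16 ± 0.08 in WT MPP (SD, n = 4), -0.21 ± 0.17 in T2F3 MPP (SD, n = 3), 0.20 ± 0.04 in WT GMP (SD, n = 5) and 0.10 ± 0.03 in T2F3 GMP (SD, n = 3). The G2/M mean was -0.16 ± 0.10, -0.24 ± 0.16, 0.17 ± 0.07 and 0.17 ± 0.06 in the same groups. In bulk RNA, a smaller share of dividing cells and less of these RNAs in each cell cannot be told apart.

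**Figure D2:**
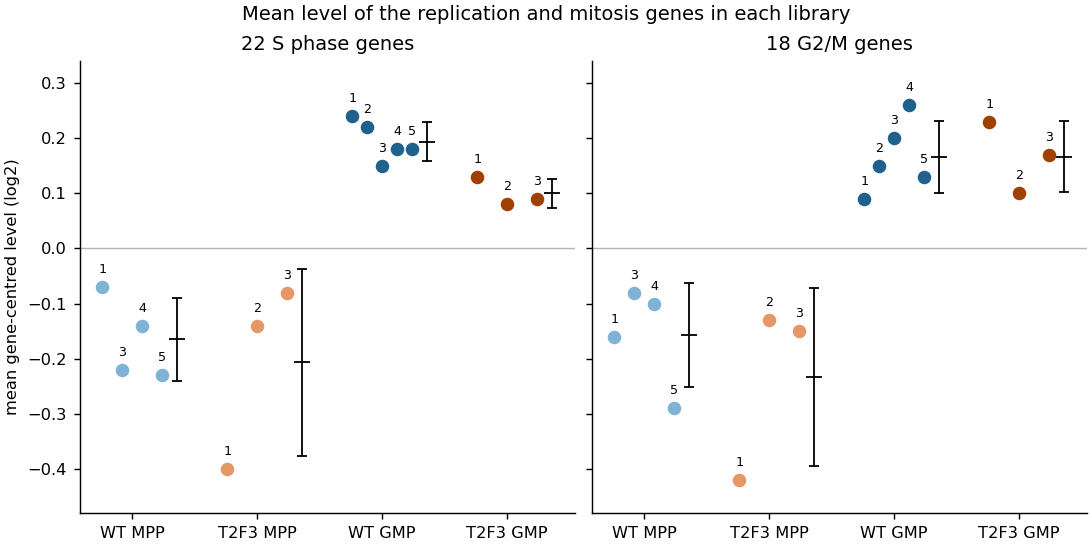
Each point is 1 library, with the mean of the 22 S phase genes at the left and of the 18 G2/M genes at the right, in log2 units around each gene's own mean, by group; bars are the group mean and its SD. The GMP libraries lie above 0 and the MPP libraries below 0 in both panels.

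S phase and G2/M genes were compared with each other within each library. The S phase mean minus the G2/M mean was -0.01 ± 0.10 in WT MPP, 0.03 ± 0.04 in T2F3 MPP, 0.03 ± 0.09 in WT GMP and -0.07 ± 0.04 in T2F3 GMP (SD over libraries). It ran from -0.08 to 0.15 in the WT GMP libraries and from -0.10 to -0.02 in the T2F3 GMP libraries, so the groups overlapped. The S phase mean alone was lower in every T2F3 GMP library (0.08 to 0.13) than in every WT GMP library (0.15 to 0.24). With the median over members in place of the mean the groups overlapped, at 0.01 to 0.13 in T2F3 and 0.08 to 0.26 in WT.

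**Figure D3:**
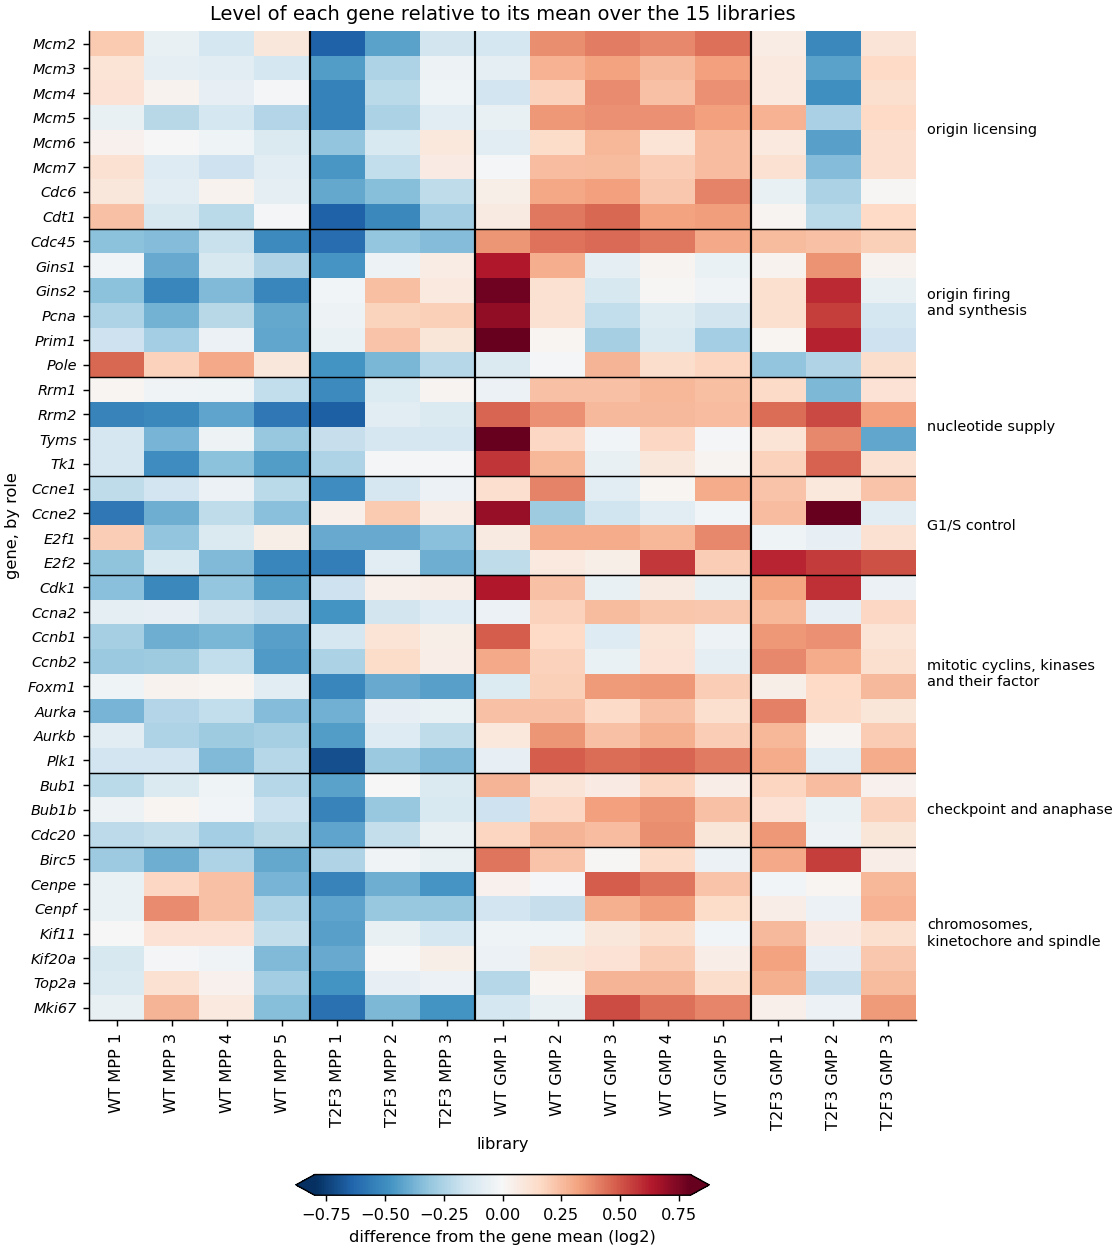
Rows are the 40 genes ordered by role, columns the 15 libraries by group, and colour is the log2 level of a gene minus its mean over the 15 libraries. The MPP columns are mostly below 0 and the GMP columns mostly above, and WT GMP 1 and T2F3 GMP 2 show a pattern of their own across rows.

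GMP were compared with MPP first in the WT libraries. Of the 40 members, 21 were higher in GMP (adjusted p under 0.05) and 0 were lower, where 25.4% of all tested genes were higher and 23.2% lower; at an unadjusted p under 0.05 it was 26 higher and 0 lower. The 21 were 11 S phase genes and 10 G2/M genes, with differences of 0.27 to 0.83 in log2 units. The median difference was 0.33 over the S phase genes and 0.28 over the G2/M genes, against 0.03 over all tested genes. For 17 members (42.5%) every GMP library lay above every MPP library, as it did for 22.6% of all tested genes.

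In T2F3 the same comparison called 18 members higher in GMP and 0 lower, where 10.5% of tested genes were higher and 11.7% lower; at an unadjusted p under 0.05 it was 23 higher and 0 lower. The 18 were 6 S phase genes and 12 G2/M genes, with medians over the lists of 0.24 and 0.38 against 0.01 over all tested genes. Every GMP library lay above every MPP library for 20 members (50%), against 16.1% of tested genes. The WT and T2F3 comparisons share no library, but both were tested in the same model with a shared variance per gene. In both, 13 members were higher in GMP, 61.9% of the WT list and 72.2% of the T2F3 list. They were Cdt1, Cdc45, Rrm2, Ccne1, E2f1 and E2f2 of S phase and Ccna2, Aurka, Aurkb, Plk1, Bub1, Cdc20 and Birc5 of G2/M. The same overlap was not counted over all tested genes, so it is not read as particular to the members.

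These counts moved with the libraries named above. Without WT GMP 1 and T2F3 GMP 2, 33 members were higher in GMP in WT (19 S phase, 14 G2/M) and 0 lower, where 31.9% of tested genes were higher and 26.1% lower. In T2F3 it was then 26 (12 and 14) higher and 0 lower, against 16.1% and 15.6% of tested genes, and 17 of the 18 calls were among them, all but Bub1. Without T2F3 MPP 1, the T2F3 comparison called 6 members higher, 3 in each list, against 8.35% of tested genes, and the list medians were 0.16 and 0.27. The 6 were Cdc45, Rrm2, E2f2, Foxm1, Aurkb and Plk1, and the other calls of this comparison were lost without that library. Markers of other cells moved with the populations too. All 6 genes of the granulocyte-macrophage progenitor list and all 7 of a late neutrophil list were higher in GMP in both genotypes, and all 7 of a stem and multipotent progenitor list were lower. The summed linear level of the late neutrophil list ran from 9450 to 16600 in WT MPP, 12500 to 27000 in T2F3 MPP, 45100 to 170000 in WT GMP and 92300 to 401000 in T2F3 GMP. The part of neutrophil transcripts in the values of the members was not tested.

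Origin licensing genes were higher in WT GMP for 3 of 8 members (Mcm5, Cdc6, Cdt1) and in T2F3 GMP for 1 (Cdt1). Cdt1, the protein that brings the helicase to origins, read 10.29, 9.93, 9.84 and 10.05 in WT MPP and 9.41, 9.54 and 9.78 in T2F3 MPP, against 10.13, 10.48, 10.52, 10.38 and 10.39 in WT GMP and 10.08, 9.84 and 10.22 in T2F3 GMP. The T2F3 libraries of the 2 populations did not overlap, and in WT 1 MPP library stood above WT GMP 1; the difference was 0.35 ± 0.11 (SE) in WT (adjusted p = 0.0162) and 0.47 ± 0.14 in T2F3 (adjusted p = 0.0197). Mcm5 differed by 0.43 ± 0.13 in WT (adjusted p = 0.00988) and by 0.35 ± 0.15 in T2F3, where it missed the threshold (adjusted p = 0.126). Differences of the other helicase subunits Mcm2, Mcm3, Mcm4, Mcm6 and Mcm7 were 0.16 to 0.27 in WT and 0.04 to 0.29 in T2F3, none past the threshold; without WT GMP 1 and T2F3 GMP 2 all 5 passed in WT and Mcm2, Mcm3 and Mcm4 in T2F3.

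Among the 6 genes of origin firing and DNA synthesis, Cdc45 had the largest difference between the populations. Cdc45, which joins the MCM ring to form the active helicase, read 9.23, 9.21, 9.38 and 9.05 in WT MPP and 8.95, 9.25 and 9.21 in T2F3 MPP, against 9.91, 9.99, 10.01, 9.98 and 9.86 in WT GMP and 9.81, 9.79 and 9.75 in T2F3 GMP. Every GMP library stood above every MPP library in both genotypes, by 0.73 ± 0.08 in WT (1.66-fold, adjusted p = 1.5e-06) and 0.65 ± 0.10 in T2F3 (1.57-fold, adjusted p = 0.000108). The WT call held under 29 of 29 alternative settings. Gins2, a subunit of the GINS complex, was 0.58 ± 0.16 higher in WT GMP (adjusted p = 0.00718), while its difference in T2F3 was 0.13 ± 0.20 (adjusted p = 0.725). Pole, the catalytic subunit of the leading-strand polymerase epsilon, was the only member with a negative WT difference, -0.17 ± 0.11 (adjusted p = 0.215). It read 10.85, 10.57, 10.69 and 10.48 in WT MPP and 9.91, 10.02 and 10.16 in T2F3 MPP, against 10.27, 10.37, 10.66, 10.53 and 10.56 in WT GMP and 10.07, 10.15 and 10.53 in T2F3 GMP, and the WT groups overlapped.

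Nucleotide supply is represented by 4 members. Rrm2, the regulatory subunit of ribonucleotide reductase that is made in S phase, read 10.29, 10.31, 10.40 and 10.25 in WT MPP and 10.17, 10.73 and 10.71 in T2F3 MPP, against 11.29, 11.19, 11.08, 11.08 and 11.07 in WT GMP and 11.27, 11.35 and 11.15 in T2F3 GMP. All GMP libraries lay above all MPP libraries, and the difference was 0.83 ± 0.11 in WT (1.78-fold, adjusted p = 7.62e-06) and 0.72 ± 0.13 in T2F3 (1.65-fold, adjusted p = 0.000482), with the WT call kept under 29 of 29 alternatives. Rrm1, the catalytic subunit of the same enzyme, read 11.66, 11.62, 11.61 and 11.45 in WT MPP and 11.14, 11.54 and 11.67 in T2F3 MPP, against 11.60, 11.88, 11.88, 11.91 and 11.89 in WT GMP and 11.80, 11.29 and 11.76 in T2F3 GMP. WT GMP 1 and T2F3 GMP 2 were the only GMP libraries within the range of the MPP libraries of their genotype, and the differences were 0.25 ± 0.13 in WT (adjusted p = 0.109) and 0.16 ± 0.15 in T2F3 (adjusted p = 0.518). Tk1, the thymidine kinase that salvages thymidine, read 9.78, 9.42, 9.59 and 9.47 in WT MPP and 9.67, 9.91 and 9.90 in T2F3 MPP, against 10.49, 10.18, 9.86, 10.01 and 9.94 in WT GMP and 10.10, 10.39 and 10.04 in T2F3 GMP. Within each genotype, all GMP libraries stood above all MPP libraries for Tk1, by 0.53 ± 0.12 in WT (adjusted p = 0.00202) and by 0.35 ± 0.15 in T2F3 (adjusted p = 0.111). Tyms, the thymidylate synthase, read 10.02, 9.78, 10.11 and 9.85 in WT MPP and 9.97, 10.02 and 10.02 in T2F3 MPP, against 11.07, 10.32, 10.13, 10.32 and 10.14 in WT GMP and 10.26, 10.54 and 9.74 in T2F3 GMP. WT GMP 1 stood well above the other GMP libraries for Tyms, and the WT difference of 0.46 ± 0.18 (adjusted p = 0.0413) was lost under 14 of 29 alternatives; in T2F3 it was 0.18 ± 0.21 (adjusted p = 0.633).

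The 4 members of G1/S control were the genes of both E cyclins and of E2F1 and E2F2. E2f2, a transcription factor that drives S phase genes, read 8.50, 8.70, 8.47 and 8.30 in WT MPP and 8.27, 8.73 and 8.43 in T2F3 MPP, against 8.62, 8.90, 8.87, 9.39 and 9.02 in WT GMP and 9.43, 9.38 and 9.33 in T2F3 GMP. T2F3 GMP libraries stood above all T2F3 MPP libraries, by 0.90 ± 0.16 (1.87-fold, adjusted p = 0.000456), and in WT the groups overlapped at 1 library, with a difference of 0.47 ± 0.13 (adjusted p = 0.00741). E2f1, the founding member of the family, read 9.40, 8.89, 9.09 and 9.25 in WT MPP and 8.80, 8.80 and 8.87 in T2F3 MPP, against 9.28, 9.50, 9.50, 9.47 and 9.59 in WT GMP and 9.17, 9.14 and 9.33 in T2F3 GMP. It was higher in GMP by 0.31 ± 0.10 in WT (adjusted p = 0.0125) and 0.39 ± 0.12 in T2F3 (adjusted p = 0.0229), and the highest WT MPP library exceeded WT GMP 1. Ccne1, the gene of cyclin E1, read 7.36, 7.41, 7.52 and 7.35 in WT MPP and 7.07, 7.43 and 7.52 in T2F3 MPP, against 7.70, 7.96, 7.48, 7.58 and 7.86 in WT GMP and 7.79, 7.65 and 7.79 in T2F3 GMP. It was higher in GMP by 0.31 ± 0.11 in WT (adjusted p = 0.0288) and by 0.40 ± 0.13 in T2F3 (adjusted p = 0.0382), with overlap in WT alone. Ccne2 read 7.38, 7.56, 7.75 and 7.62 in WT MPP and 7.99, 8.16 and 8.01 in T2F3 MPP, against 8.65, 7.67, 7.79, 7.86 and 7.93 in WT GMP and 8.20, 8.84 and 7.87 in T2F3 GMP. WT GMP 1 and T2F3 GMP 2 were the highest libraries for Ccne2, and its differences of 0.40 ± 0.19 and 0.25 ± 0.23 missed the threshold (adjusted p = 0.0869 and 0.514).

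Mitotic cyclins, kinases and Foxm1 were higher in GMP for 7 of 8 members in WT and 5 of 8 in T2F3. Plk1, the Polo kinase of mitotic entry, differed by 0.57 ± 0.12 in WT (adjusted p = 0.00109) and 0.62 ± 0.15 in T2F3 (adjusted p = 0.00586), with no overlap of the populations in either genotype. The Aurora kinase genes Aurka and Aurkb also lay apart in both genotypes, by 0.48 ± 0.09 and 0.45 ± 0.09 in WT and by 0.39 ± 0.10 and 0.41 ± 0.10 in T2F3. Cdk1 and its partners Ccnb1 and Ccnb2 were higher in WT GMP by 0.57 ± 0.14, 0.48 ± 0.11 and 0.40 ± 0.10, while their T2F3 differences of 0.27 to 0.30 missed the threshold. Foxm1, the factor that drives G2/M genes, read 9.69, 9.75, 9.74 and 9.63 in WT MPP and 9.20, 9.32 and 9.29 in T2F3 MPP, against 9.61, 9.91, 10.06, 10.07 and 9.92 in WT GMP and 9.77, 9.88 and 9.98 in T2F3 GMP. Its T2F3 populations lay apart by 0.61 ± 0.11 (1.52-fold, adjusted p = 0.000484), and its WT difference of 0.22 ± 0.09 missed the threshold (adjusted p = 0.0547).

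All 3 members of the spindle checkpoint and of anaphase entry were higher in T2F3 GMP, and Bub1 and Cdc20 were also higher in WT GMP. The T2F3 calls of Bub1, Bub1b and Cdc20 were lost under 12, 9 and 7 of 29 alternatives, all 3 without T2F3 MPP 1. Cdc20, the activator of the anaphase-promoting complex, read 9.59, 9.61, 9.53 and 9.58 in WT MPP and 9.38, 9.61 and 9.74 in T2F3 MPP, against 9.97, 10.07, 10.05, 10.17 and 9.90 in WT GMP and 10.15, 9.76 and 9.90 in T2F3 GMP. Every GMP library stood above every MPP library, by 0.45 ± 0.09 in WT (adjusted p = 0.000641) and 0.36 ± 0.11 in T2F3 (adjusted p = 0.0274). Bub1, a checkpoint kinase of the kinetochore, read 9.54, 9.64, 9.72 and 9.53 in WT MPP and 9.33, 9.76 and 9.64 in T2F3 MPP, against 10.03, 9.86, 9.82, 9.93 and 9.81 in WT GMP and 9.93, 10 and 9.79 in T2F3 GMP. These libraries did not overlap either, and the differences were 0.28 ± 0.09 (adjusted p = 0.015) and 0.33 ± 0.11 (adjusted p = 0.038). Bub1b, which encodes the checkpoint protein BUBR1, read 10.25, 10.31, 10.27 and 10.12 in WT MPP and 9.76, 9.99 and 10.17 in T2F3 MPP, against 10.13, 10.46, 10.62, 10.65 and 10.53 in WT GMP and 10.41, 10.24 and 10.48 in T2F3 GMP. The T2F3 populations lay apart by 0.40 ± 0.13 (adjusted p = 0.0378), and the WT populations overlapped with a difference of 0.24 ± 0.11 (adjusted p = 0.0785).

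Genes of chromosomes, kinetochore and spindle were higher in GMP for 1 of 7 members in WT and 4 of 7 in T2F3. All 4 T2F3 calls were lost without T2F3 MPP 1. Birc5, a subunit of the chromosomal passenger complex, was higher in both genotypes, by 0.49 ± 0.11 in WT (adjusted p = 0.00142) and 0.41 ± 0.13 in T2F3 (adjusted p = 0.0357). Cenpe (a kinetochore motor), Kif11 (the motor that separates spindle poles) and Mki67 (the proliferation marker Ki-67) were higher in T2F3 GMP by 0.55 ± 0.16, 0.36 ± 0.11 and 0.59 ± 0.19. Their WT differences were 0.24 ± 0.13, 0.02 ± 0.09 and 0.25 ± 0.16, none past the threshold. Kif20a and Top2a, a cytokinesis motor and the topoisomerase that untangles DNA, passed in neither genotype, at 0.22 ± 0.11 and 0.15 ± 0.14 in WT and 0.28 ± 0.13 and 0.31 ± 0.17 in T2F3. Over the 40 members, the 95% intervals of these differences reached from -0.41 to 1.05 in WT and from -0.43 to 1.24 in T2F3.

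**Figure D4:**
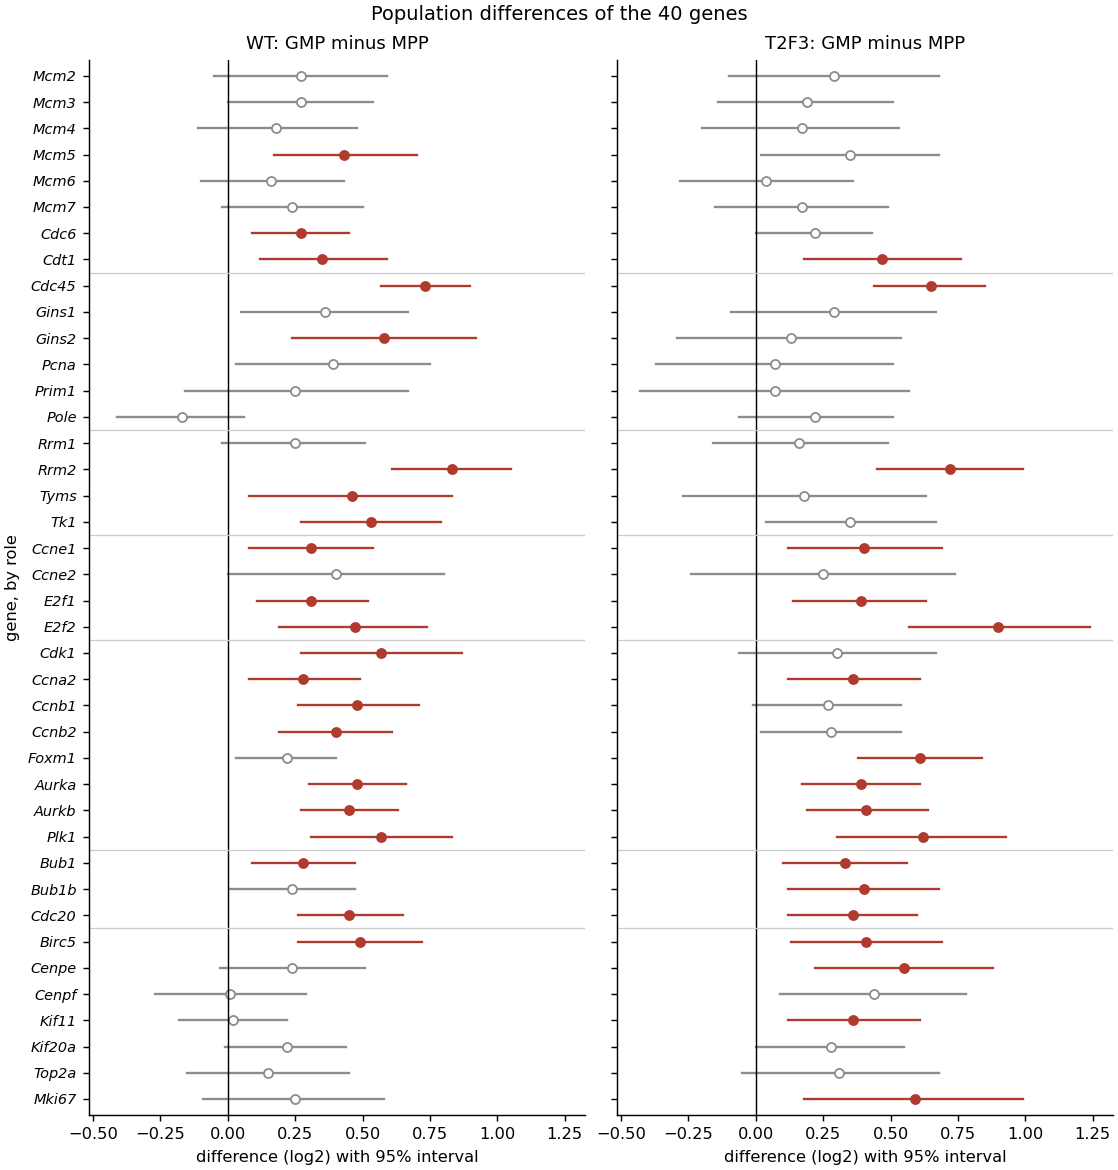
Points are the difference GMP minus MPP of each of the 40 genes in log2 units, in WT at the left and in T2F3 at the right, with 95% intervals; filled points passed the adjusted p threshold of 0.05. In WT 21 points are filled and in T2F3 18, all of them to the right of 0.

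The promoter letters were set beside these differences as a description. Of the 10 G2/M genes with CHR letters, 5 were higher in WT GMP (median difference 0.32), and of the 4 without, 3 were (median 0.38). In T2F3 it was 6 of 10 (median 0.38) and 3 of 4 (median 0.37). Of the 8 S phase genes with E2F-type letters, 5 were higher in WT GMP, and so were 5 of the 9 without, with a median of 0.31 in each set. In T2F3 it was 2 of 8 with a median of 0.20 and 4 of 9 with a median of 0.35.

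T2F3 was then compared with WT within each population. In MPP, 2 members were higher in T2F3 (Gins2 and Ccnb1) and 8 lower (Pole, Cdt1, Cdc6, E2f1, Foxm1, Cenpe, Cenpf and Mki67), where 20.7% of all tested genes were higher and 19.6% lower; at an unadjusted p under 0.05 it was 6 higher and 10 lower. The calls fell evenly over the lists, 1 higher and 4 lower in each, and the median difference was -0.08 in each list against -0.02 over all tested genes. The share of members called lower, 20%, is near the share of all tested genes. The called differences were 0.30 to 0.62 in size, and the 95% intervals of the 40 members reached from -0.89 (1.85-fold lower) to 0.93 (1.91-fold higher).

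Pole had the largest difference in MPP. It was lower in all 3 T2F3 MPP libraries than in all 4 WT MPP libraries (values above), by 0.62 ± 0.13 (1.54-fold, adjusted p = 0.00161), and 28 of 29 alternatives kept the call. Foxm1 was lower by 0.43 ± 0.10 (1.35-fold, adjusted p = 0.00412), with no overlap of the groups, and 27 of 29 alternatives kept it. Both were still lower without T2F3 MPP 1, Pole by 0.56 (adjusted p = 0.00793) and Foxm1 by 0.40 (adjusted p = 0.0157). Without that library 4 members were higher, against 18.6% of tested genes, and these 2 were the only ones lower, against 18.6%. The list medians then turned positive, to 0.02 for S phase and 0.03 for G2/M.

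All 8 licensing genes had negative differences in MPP, with a median of -0.24, and the loading factors Cdc6 and Cdt1 passed the threshold. Of the 12133 tested genes, 6244 had negative differences. The 8 genes moved together between libraries, all below the other libraries of the group in T2F3 MPP 1, WT GMP 1 and T2F3 GMP 2. Their signs are therefore not independent. Without T2F3 MPP 1, 7 of the 8 were negative, with a median of -0.12, and in the fit that adds the score of ribosomal protein genes 3 of the 8 were, with a median of 0.09. Cdc6, an ATPase that loads the helicase, read 9.32, 9.14, 9.26 and 9.16 in WT MPP and 8.82, 8.89 and 9.03 in T2F3 MPP. The groups did not overlap, and T2F3 was lower by 0.30 ± 0.10 (adjusted p = 0.0221), a call lost without WT MPP 1, T2F3 MPP 1 or T2F3 MPP 2. Cdt1 was lower by 0.45 ± 0.13 (1.37-fold, adjusted p = 0.0127), again without overlap. Mcm2 read 11.50, 11.23, 11.15 and 11.38 in WT MPP and 10.64, 10.86 and 11.14 in T2F3 MPP. Its groups lay apart as well, and the difference of -0.43 ± 0.17 missed the threshold (adjusted p = 0.0546).

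Gins2 and Ccnb1 were the members higher in T2F3 MPP. Gins2 read 7.94, 7.75, 7.92 and 7.75 in WT MPP and 8.25, 8.51 and 8.35 in T2F3 MPP. All T2F3 libraries were above all WT libraries, by 0.53 ± 0.18 (1.44-fold, adjusted p = 0.0321). Ccnb1, the gene of cyclin B1, read 9.65, 9.52, 9.55 and 9.48 in WT MPP and 9.78, 10.02 and 9.96 in T2F3 MPP. It lay apart in the same way, by 0.37 ± 0.12 (1.29-fold, adjusted p = 0.0255), and the calls of both genes were lost under 7 of 29 alternatives, among them leaving out WT MPP 3, WT MPP 5, T2F3 MPP 2 or T2F3 MPP 3. Pcna (0.42 ± 0.19), Ccne2 (0.48 ± 0.22), Cdk1 (0.38 ± 0.16) and Birc5 (0.23 ± 0.12) also lay above all WT libraries and missed the threshold (adjusted p of 0.0702 to 0.149).

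The remaining genes called lower in T2F3 MPP were E2f1 and the kinetochore and proliferation genes. E2f1 was lower by 0.33 ± 0.11 (adjusted p = 0.0242), with every T2F3 library at or below 8.87 and every WT library at or above 8.89; 8 of 29 alternatives lost the call, among them leaving out WT MPP 1, WT MPP 5 or any 1 of the 3 T2F3 MPP libraries. Cenpe read 9.66, 9.88, 9.95 and 9.34 in WT MPP and 9.18, 9.32 and 9.24 in T2F3 MPP. Cenpf, another kinetochore protein gene, read 9.67, 10.10, 9.96 and 9.48 in WT MPP and 9.30, 9.42 and 9.42 in T2F3 MPP. In both, every T2F3 library was below every WT library, by 0.46 ± 0.15 (adjusted p = 0.0213) and 0.42 ± 0.15 (adjusted p = 0.0376). The Cenpe call was lost under 6 of 29 alternatives and the Cenpf call under 9, both of them without WT MPP 3, WT MPP 4, T2F3 MPP 1 or T2F3 MPP 3, and Cenpf also without T2F3 MPP 2. Mki67 read 12.69, 13.02, 12.83 and 12.41 in WT MPP and 12.15, 12.39 and 12.27 in T2F3 MPP. The highest T2F3 library was just below the lowest WT library, the difference was 0.46 ± 0.18 lower in T2F3 (adjusted p = 0.0497), and 17 of 29 alternatives lost the call.

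Genes of nucleotide supply, the checkpoint and the Aurora kinases did not pass in MPP. Rrm1 and Rrm2 differed by -0.13 ± 0.14 and 0.22 ± 0.12, Tyms by 0.06 ± 0.20 and Tk1 by 0.26 ± 0.14. Bub1, Bub1b and Cdc20 differed by -0.03 ± 0.10, -0.27 ± 0.12 and 0.00 ± 0.10, and Aurka and Aurkb by 0.12 ± 0.10 and -0.03 ± 0.10. Their groups overlapped in every case.

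**Figure D5:**
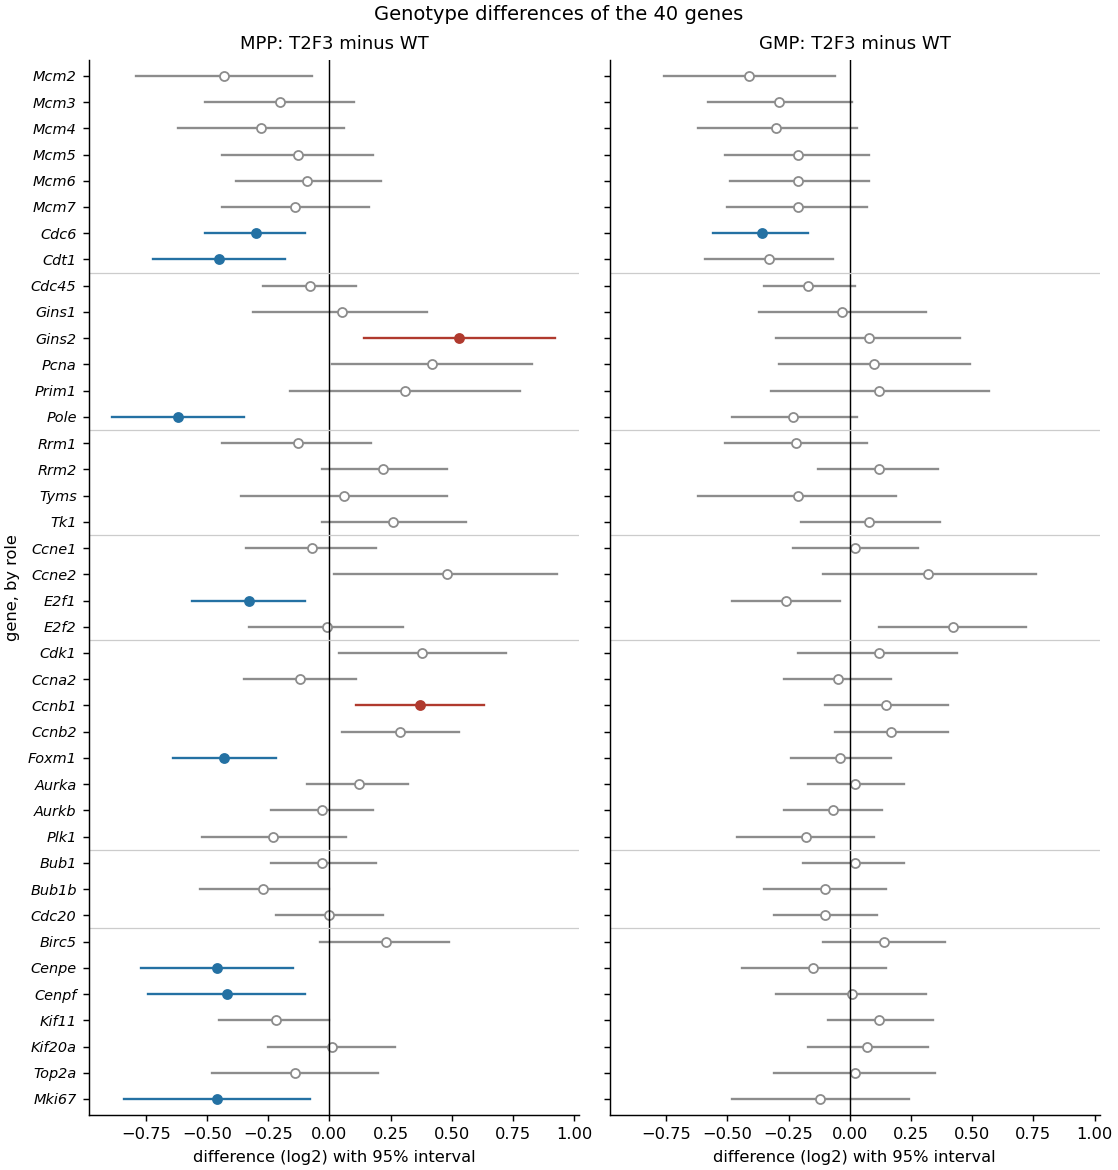
Points are the difference T2F3 minus WT of each of the 40 genes in log2 units, in MPP at the left and in GMP at the right, with 95% intervals; filled points passed the adjusted p threshold of 0.05. In MPP 2 points are filled to the right of 0 and 8 to the left, and in GMP 1 point, Cdc6, is filled to the left.

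The direction of a member in the genotype comparison of MPP went with its direction in the GMP libraries that stood apart, which are no part of the MPP difference. Of the 13 members for which both WT GMP 1 and T2F3 GMP 2 lay above the mean of the other libraries, 12 had a positive T2F3 minus WT difference in MPP (median 0.29), and of the 23 that lay below in both, 22 had a negative one (median -0.22). These sets were chosen after their values were seen. The same counts were not made over all tested genes, where the deviations of the 2 GMP libraries also correlated, at 0.81. The 12 and 22 are therefore not read as particular to the members. The ribosomal protein score separated the genotypes in MPP in the same direction, at -0.49 to -0.40 in WT and 0.24 to 0.26 in T2F3. With this score as a covariate, the medians of the 2 sets in MPP were -0.08 and 0.06. In that fit 0 members were called higher and 3 lower, where 14.6% and 13.9% of all tested genes were. Of the genes called lower in the main fit only Pole stayed so. The others called lower were Prim1 (-0.34) and Tyms (-0.51), whose differences were positive in the main fit. Since the score does not overlap between the genotypes in MPP, the parts of score and genotype cannot be told apart there.

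Without WT GMP 1 and T2F3 GMP 2, whose spread enters the shared variance of the model, 9 members were higher in T2F3 MPP and 12 lower, where 28.5% of tested genes were higher and 26.7% lower. The genes added were Pcna, Prim1, Tk1, Ccne2, Cdk1, Ccnb2 and Birc5 among the higher and Mcm2, Mcm4, Plk1 and Bub1b among the lower. With T2F3 MPP 1 left out as well, a setting chosen after the data were seen, 11 were higher and 7 lower. Of all tested genes, 29.3% were then higher and 26.6% lower. Markers of other cells differed between the genotypes in MPP. Of a dendritic cell list 6 of 7 genes were higher in T2F3, with a summed linear level of 4680 to 8930 in WT and 33200 to 60700 in T2F3, and 6 of 7 monocyte genes were higher, at 7430 to 9950 and 18000 to 27700. Of the stem and multipotent progenitor list 5 of 7 genes were lower and 1 higher in T2F3 MPP, at 4310 to 5090 in WT and 2280 to 3590 in T2F3, and 4 of 5 basophil and mast cell genes were lower, at 906 to 1240 and 651 to 741. Their part in the values of the members was not tested.

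In GMP, 1 member was lower in T2F3 and 0 were higher, where 6.04% of all tested genes were lower and 9.25% higher. At an unadjusted p under 0.05 limma gave 1 higher and 4 lower. The member was Cdc6, which read 9.28, 9.54, 9.56, 9.45 and 9.63 in WT GMP and 9.17, 8.98 and 9.24 in T2F3 GMP. All T2F3 GMP libraries were below all WT GMP libraries, by 0.36 ± 0.09 (1.28-fold, adjusted p = 0.014). The call was kept under 25 of 29 alternatives and lost without T2F3 GMP 2. Cdc6 was thus lower in T2F3 in both populations. The other 7 licensing genes had negative differences of -0.41 to -0.21 in GMP, none past the threshold, and the median of the 8 was -0.29. All 8 were also negative without T2F3 GMP 2, where the median was -0.10, and without WT GMP 1 and T2F3 GMP 2, where it was -0.18. With all libraries, 6425 of the 12133 tested genes had negative differences in GMP. The signs of the 8 are not independent, as stated for MPP.

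Markers of other cells differed between the genotypes in GMP as well. In T2F3 GMP 6 of 7 dendritic genes were higher, with a summed linear level of 3000 to 3720 in WT and 25100 to 28800 in T2F3, and 5 of 7 monocyte genes were higher, at 19200 to 26500 and 34100 to 61000. All 5 genes of a basophil and mast cell list were lower, at 3640 to 6920 in WT and 755 to 1520 in T2F3. Their part in the values of the members was not tested.

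The median difference in GMP was -0.21 over the S phase genes and 0.01 over the G2/M genes, against -0.02 over all tested genes. Without WT GMP 1 and T2F3 GMP 2 the S phase median was -0.11, and 0 members were higher and 1 lower (Cdc6), against 10.5% and 7.43% of tested genes. E2f2 had the largest positive difference, 0.42 ± 0.14 (adjusted p = 0.0552), with 1 WT GMP library at the level of the T2F3 libraries. S phase genes with E2F-type letters had a median of -0.21 in GMP and those without 0.02, as a description. In MPP these medians were -0.13 and -0.07. Most of the genes with the letters were licensing genes (Mcm3, Mcm5, Mcm6, Mcm7, Cdc6 and Cdt1), so the parts of letters and role cannot be told apart. The 95% intervals of the 40 members in GMP reached from -0.76 to 0.76, a 1.69-fold difference in each direction.

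The genotype effects in GMP and MPP were compared by their difference in the same model, which is also the test of whether the populations differ by another amount in T2F3 than in WT. No member passed, 0 higher and 0 lower, where 1.38% of tested genes were higher and 0.882% lower. At an unadjusted p under 0.05, limma gave 3 members with a more positive effect in GMP and 0 with a more negative one, and they were Foxm1 (0.39 ± 0.14, adjusted p = 0.145), Kif11 (0.34 ± 0.15, adjusted p = 0.221) and Pole (0.39 ± 0.17, adjusted p = 0.234). Without WT GMP 1 and T2F3 GMP 2, 0 members were higher and 1 lower, against 3.29% and 6.63% of tested genes; it was Gins2 (-0.49 ± 0.14, adjusted p = 0.0326). Without T2F3 MPP 1, 0 members passed in either direction, against 2.95% and 1.88% of tested genes. At an unadjusted p under 0.05, limma then gave 1 higher and 1 lower. The list medians were -0.20 for S phase and -0.08 for G2/M, against -0.08 and 0.06 with all libraries. With all libraries, the intervals of the 40 differences reached from -0.99 to 0.87. Effects that differ between the populations by up to 1.99-fold lie inside them.

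Wider lists of the same pathways, none of them sharing a gene with the 40, were read for comparison. Their values come from the fit of all libraries and were not repeated without the libraries that stood apart. Of 46 other replication genes, 19 were higher in GMP in WT and 0 lower, and 4 were higher and 0 lower in T2F3. Of 54 other mitosis genes, 22 were higher and 1 lower in WT and 27 higher and 0 lower in T2F3. The shares over all tested genes were 25.4% higher and 23.2% lower in WT, and 10.5% and 11.7% in T2F3. Fen1, the nuclease that trims Okazaki fragments, was 0.47 ± 0.12 higher in WT GMP, and Clspn, a mediator of the replication checkpoint, was 0.57 ± 0.13 higher in T2F3 GMP. Sgo2a, a protector of centromere cohesion, was 0.75 ± 0.13 higher in T2F3 GMP. The median over the list of replication genes was 0.25 in WT and 0.11 in T2F3, and over the list of mitosis genes 0.22 and 0.36.

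Regulators of the E2F, DREAM and CDK systems, 22 genes, were higher in GMP for 6 and lower for 3 in WT, and higher for 9 and lower for 1 in T2F3. Of all tested genes, 25.4% were higher and 23.2% lower in WT, and 10.5% and 11.7% in T2F3. The WT count of higher regulators is near the share of all tested genes. E2f8, a repressor of the E2F family, was 0.51 ± 0.08 higher in WT GMP and 0.87 ± 0.10 higher in T2F3 GMP (adjusted p = 8.55e-06). Between the genotypes in MPP, 7 of the 22 were lower in T2F3 and 0 higher, where 19.6% and 20.7% of all tested genes were. Mybl2, the MuvB partner of S phase and G2, was 0.62 ± 0.10 lower in T2F3 MPP (adjusted p = 0.000275) and 0.69 ± 0.10 lower in T2F3 GMP (adjusted p = 0.000104). E2f8 was 0.61 ± 0.10 lower in T2F3 MPP (adjusted p = 0.000173). E2f7, the partner of E2f8, had a genotype effect 0.63 ± 0.15 more positive in GMP than in MPP (adjusted p = 0.0364).

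Among the other replication genes, 3 were higher and 8 lower in T2F3 MPP, and 0 higher and 3 lower in T2F3 GMP. The shares over all tested genes were 20.7% higher and 19.6% lower in MPP, and 9.25% and 6.04% in GMP. Recql4, a helicase that takes part in origin firing, was lower in both populations, by 0.68 ± 0.11 in MPP (adjusted p = 0.000206) and 0.45 ± 0.10 in GMP (adjusted p = 0.00669). Of the other mitosis genes, 2 were higher and 10 lower in T2F3 MPP, and 1 higher and 0 lower in T2F3 GMP, against the same shares over all tested genes. Cit, the citron kinase of cytokinesis, was 0.69 ± 0.12 lower in T2F3 MPP, and Nusap1, a spindle protein, was 0.37 ± 0.11 higher in T2F3 GMP (adjusted p = 0.0376).

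The labels were checked against the targeted genes and the gates. Tet2 read 9.71 to 9.89 in WT MPP, 9.67 to 9.90 in T2F3 MPP, 9.87 to 10.19 in WT GMP and 9.88 to 10.30 in T2F3 GMP, so its level does not separate the genotypes, and a value for the whole gene does not check the deletion of part of it. Flt3 read 8.72 to 8.89 in WT GMP and 9.87 to 10.47 in T2F3 GMP, and in MPP it did not separate the genotypes, at 11.29 to 11.48 in WT and 11.21 to 11.40 in T2F3. The gate gene Fcgr3, which encodes CD16, read 8.89 ± 0.22 in WT MPP (SD, n = 4) and 11.01 ± 0.34 in WT GMP (SD, n = 5). Ly6a, the gene of Sca-1, was present in GMP at 7.12 ± 0.14 in WT and 7.61 ± 0.14 in T2F3, against 7.70 ± 0.15 and 8.32 ± 0.18 in MPP. In an erythroid list 6 genes were lower in T2F3 MPP and 5 in T2F3 GMP, and its globin genes Hba-a2, Hbb-b1 and Hbb-bt were listed at 0 in every library.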

How the data were processed

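RNA-seq of 15 libraries, made with a kit for stranded mRNA according to the labels' protocols, was used as the authors deposited it: log2 values of 24424 Entrez genes, regularized log values by the table's name. In the submitters' processing notes DESeq2, HOMER, STAR and Bowtie are named, with mm9 as the build; versions, roles and settings are not given in the sources used here. The values hold no counts, so depth and counting error are unknown. IDs were matched to symbols with RefSeq's GRCm38.p6 gene table (24345 matched). The 41 other samples of the 56 were not analysed here.

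The 12133 genes whose mean was 4 or more were fitted in 1 limma model (version 3.58.1, R 4.3.3), with trend and robust set, that gave each of the 4 groups its own mean. Two-sided p-values were adjusted over all tested genes (Benjamini-Hochberg), and an adjusted p under 0.05 was called whatever the fold. Differences carry limma's SE and levels the SD over libraries. The ribosomal protein score is the mean of 74 such genes, each centred. Marker levels were summed on the linear scale. The fit was also run on simulated data with independent noise for each gene and library. Such data lack the deviations that libraries share here, so that run is no check on them. The members, the lists and the rules were chosen with earlier results of these data known. Values per library are given for members called between genotypes, all members of roles with up to 4 genes, and members that go against most of their list; of wider lists the 3 smallest p-values could be named.

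Alternatives were array weights, fits without the trend or the robust step, quantile normalization, centring on library medians, a pseudocount of 8, no filter or a minimum of 6, fits of the compared groups only, testing for differences over 0.5 in log2 units, replicate numbers as a block, the ribosomal protein score as a covariate, WT GMP 1 and T2F3 GMP 2 left out, and each library left out. Promoter letters TTTNNCGC, TTTGAA and CCAAT were searched on both strands from 250 bases before to 50 after each RefSeq start. The entries of a chromosome were left out of this search. Tables were joined with pandas 2.3.3 and NumPy 2.4.6 under Python 3.11.15, and plots were drawn with Matplotlib 3.10.9.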

Additional observations from a re-analysis of the deposited data

Results flagged for a closer look

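In WT GMP 1, 11 of the 80 gaps examined over the members (WT MPP and WT GMP, each member in each) were wider than Dixon's 95% criterion allows for a library against the rest of its group, and all 11 belonged to this library. It was low for 7 members. Mcm2 read 11.15 there and 11.66 to 11.73 in the other 4 WT GMP libraries. Mcm3 read 11.46 against 11.79 to 11.86, Mcm5 11.71 against 12.10 to 12.14 and Mcm7 11.70 against 11.91 to 11.97. Rrm1 read 11.60 against 11.88 to 11.91, Ccna2 10.35 against 10.58 to 10.65 and Plk1 9.21 against 9.69 to 9.76. It was high for 4 members, Gins2 at 9.05 against 8.14 to 8.39, Prim1 at 10.57 against 9.49 to 9.78, Tyms at 11.07 against 10.13 to 10.32 and Ccne2 at 8.65 against 7.67 to 7.93. Chance gives such a gap in about 5% of groups, and genes of 1 library are not independent. Its ribosomal protein score of 0.85 was the highest of the 15 libraries; its part in these values was not tested.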

How the results depend on the processing

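Counts of members called are given here where they moved by more than 1.5 times. The share of all tested genes called also moved between settings, so these counts are not read as results about the members. In MPP, the 2 members higher in T2F3 became 11 with array weights, 9 with the compared groups alone, 0 in a test against a log2 difference of 0.5, 9 without WT GMP 1 and T2F3 GMP 2, 0 with the score of ribosomal protein genes as a covariate, 11 without these libraries and T2F3 MPP 1, and 0 to 6 with each library left out in turn. The 8 lower became 0 against 0.5, 3 with the covariate (Pole, Prim1 and Tyms) and 2 to 10 with each library left out. In GMP, the 0 higher became 3 with array weights, 1 with the covariate and 0 to 1 with each library left out; the 1 lower became 5 with array weights, 0 with the groups alone, 0 against 0.5, 2 with the covariate, 2 without the 3 libraries and 0 to 6 with each library left out (6 without WT GMP 1, 0 without T2F3 GMP 2). The 0 members with a more negative genotype effect in GMP became 1 without WT GMP 1 and T2F3 GMP 2 and 1 without the 3 libraries. Higher in WT GMP than in WT MPP, the 21 became 35 with array weights, 2 against 0.5, 33 without the 2 libraries and 35 without the 3, and stayed at 17 to 25 with each left out; the 0 lower became 1 after quantile normalization (Pole, -0.33, adjusted p = 0.015) and 1 with the covariate (Prim1). In T2F3, the 18 became 11 after quantile normalization, 10 with the groups alone, 0 against 0.5 and 6 to 20 with each library left out (6 without T2F3 MPP 1, 8 without T2F3 GMP 1, 10 without T2F3 GMP 3, 11 without T2F3 MPP 2). The cause was not tested, except that the test against 0.5 asks for larger differences by construction.

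Same-numbered MPP and GMP libraries correlated at 0.05 to 0.46 over 7 pairs, 5 of them over 0.1. MPP and GMP libraries of the same genotype and different numbers correlated at -0.33 to 0.40. Of 7 MPP libraries, 4 correlated best with their own number. These values do not settle whether the numbers pair the libraries, and the main fit does not pair them. With the replicate number as a block across genotypes, the calls were 0 higher and 4 lower in MPP, 0 and 0 in GMP, 22 in WT and 15 in T2F3. With genotype and number as 1 block of MPP and GMP, they were 2 and 7, 0 and 1, 23 and 19.

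The S phase minus G2/M level of T2F3 MPP was -0.01 with medians over members. After quantile normalization the S phase level was -0.08 in WT MPP, 0.13 in WT GMP and 0.05 in T2F3 GMP, and the G2/M level -0.06 in WT MPP and 0.09 in WT GMP. With the covariate, Prim1 turned to -0.34 (adjusted p = 0.0158) and Tyms to -0.51 (adjusted p = 0.00112) between genotypes in MPP, and Prim1 to -0.20 (adjusted p = 0.035) between WT populations. Of the other values for single members and settings, 5355 stayed on the same side of the threshold, 188 newly passed it and 214 no longer did. Directions were not compared for members called in neither fit. No scaling moved the median of all genes by over 0.1.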
